A study of Mus musculus with 3 samples.

Results

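The genes described here are homeobox transcription factors and their close namesakes on the array: every gene whose name began with Hoxa, Hoxb, Hoxc, Hoxd, Pbx, Meis, Irx, Lhx, Pitx, Dlx, Msx, Prrx, Emx, Tgif, Pou or Pax followed by a digit, and likewise the family that Six4 belongs to, leaving out Pou5f1. They were taken by name, under a rule set with earlier results of these data known. This gave 39 genes and 42 probes among 20371 probes and 18118 gene names. Meis1 had 3 probes and Dlx3 had 2, and no Pitx or Tgif gene had a probe under such a name. The name rule is wider than the homeodomain. Pou2af1 encodes a coactivator of POU proteins with no homeodomain, and Pax1 and Pax5 bind DNA mainly through the paired domain.

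Homeobox genes encode the homeodomain, a helical DNA-binding fold that reads short AT-rich sites. The Hox genes lie in clusters and give cells their position along the body axis, and in the female tract the posterior Hoxa genes pattern the Müllerian duct. Pbx and Meis proteins are partners that bind DNA together with Hox proteins, and Emx2 is required for the formation of the urogenital tract. Several of these factors are used in embryonic epithelia that turn into mesenchyme, or back, which is the change the cells here were put through.

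RNA came from 3 separate primary cultures of ovarian surface epithelium, the single cell layer that covers the ovary, taken from superovulated and mated C57/Bl6 females. Each culture was divided. The epithelial part was kept in 2.5% fetal bovine serum, and the mesenchymal part was grown for 1 week in 15% serum, which the labels describe as inducing an epithelial-to-mesenchymal transition. Each culture had 2 arrays, 1 per dye orientation of its Cy3 and Cy5 labelled RNAs, so 6 arrays in all. Serum concentration and cell phenotype changed together, so their contributions cannot be told apart, and the number of animals behind a culture is not given in the sources used here. In a bulk RNA sample, fewer cells of a type and less RNA per cell cannot be told apart.

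Ratios are log2 values of mesenchymal over epithelial signal, with the 2 arrays of a culture averaged and the 3 cultures as replicates. A probe was called at a Benjamini-Hochberg adjusted p below 0.05 over all probes tested in limma. Each adjusted p below comes from that fit unless a refit is named. Of 20185 probes tested, 2272 or 11.3% were called, 1130 (5.6%) higher and 1142 (5.66%) lower in mesenchymal cells. Across all probes, the ratios of cultures 2 and 3 correlated at 0.88, and those of culture 1 at 0.60 and 0.63 with cultures 2 and 3. A dye effect, the difference between the ratios of the 2 orientations divided by 2, was called for 11638 probes. It had an SD of 0.48 over probes, against 0.31 for the ratios, and arrays of opposite orientation correlated between -0.52 and -0.11 once turned the same way. The orientation itself was taken from the names of the deposited arrays.

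Markers of ovarian surface epithelium and mesothelium were read beside the labelled cell type. All 8 tested exceeded the negative controls in both RNAs, but so did 94.6% of all probes and all 5 oocyte markers. Signal above these controls therefore does not identify the cell type. Of the 8 markers, 6 were lower in mesenchymal cells and none was higher. Krt8, 1 of the 6, was at -0.32 ± 0.06 (adjusted p = 0.040) and lost its call without culture 2, without culture 3, with trend and robust variance and on the arrays with epithelial RNA in Cy5 alone. Cdh1 (E-cadherin), which was not called, was at 0.23 ± 0.06 (adjusted p = 0.098) and above 0 on all 6 arrays. Gpm6a was at -2.98 ± 0.22, Msln (mesothelin) at -2.07 ± 0.27 and Krt7 (a simple-epithelial keratin) at -1.83 ± 0.04 (log2 ratio, SD, n = 3; adjusted p = 0.000133 for Gpm6a and 0.000409 for Msln). The summed linear signal of the list lay between 292213 and 320402 in the epithelial RNAs and between 140859 and 167584 in the mesenchymal RNAs. Saturation of Krt7 for epithelial RNA, on each of the 6 arrays, makes its drop look smaller. For smooth muscle, 1 of 4 markers was lower (Acta2, at -1.19 ± 0.05, saturated for epithelial RNA on 5 of 6 arrays, which makes the drop look smaller) and the sums were 66860.5 to 74508.9 against 35392.4 to 36326.5. For theca and stroma 2 of 8 were lower (Ogn at -2.05 ± 0.19 and Pdgfra at -0.84 ± 0.27), with sums of 34546.6 to 40920.6 against 24251.3 to 34307.9. Pdgfra was above 0 on 2 of 6 arrays and lost its call on the arrays with epithelial RNA in Cy5 alone. For granulosa cells 1 of 5 was lower (Inhba at -0.88 ± 0.25), with overlapping sums of 19570.3 to 30385.8 and 18279.6 to 26983.3. Inhba was below 0 on 3 arrays and above 0 on 3, with a dye effect of -1.63. None of the 2 endothelial, 2 leukocyte, 5 oocyte and 1 oviduct markers tested was called. What these marker changes contributed to the homeobox ratios was not tested.

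Of the 42 homeobox probes, 41 were tested and 2 were called, which is 4.88% against 11.3% of all probes. Emx2 was lower in mesenchymal cells and Irx3 was higher. The median ratio of the 41 probes was 0.03, against -0.003 over all probes, and the median size of the ratio was 0.06 against 0.10. An unadjusted p below 0.05 was reached by 6 of the 41 (14.6%) and by 23.5% of all probes. Among the 37 probes above the negative controls in both RNAs, the 95% interval of the ratio stayed within 1.5-fold in either direction for 34 (91.9%, against 84.3% of all such probes), the exceptions being Emx2, Irx3 and Irx5. The called share of the set was thus below that of the array as a whole, a description with no test.

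**Figure D1:**
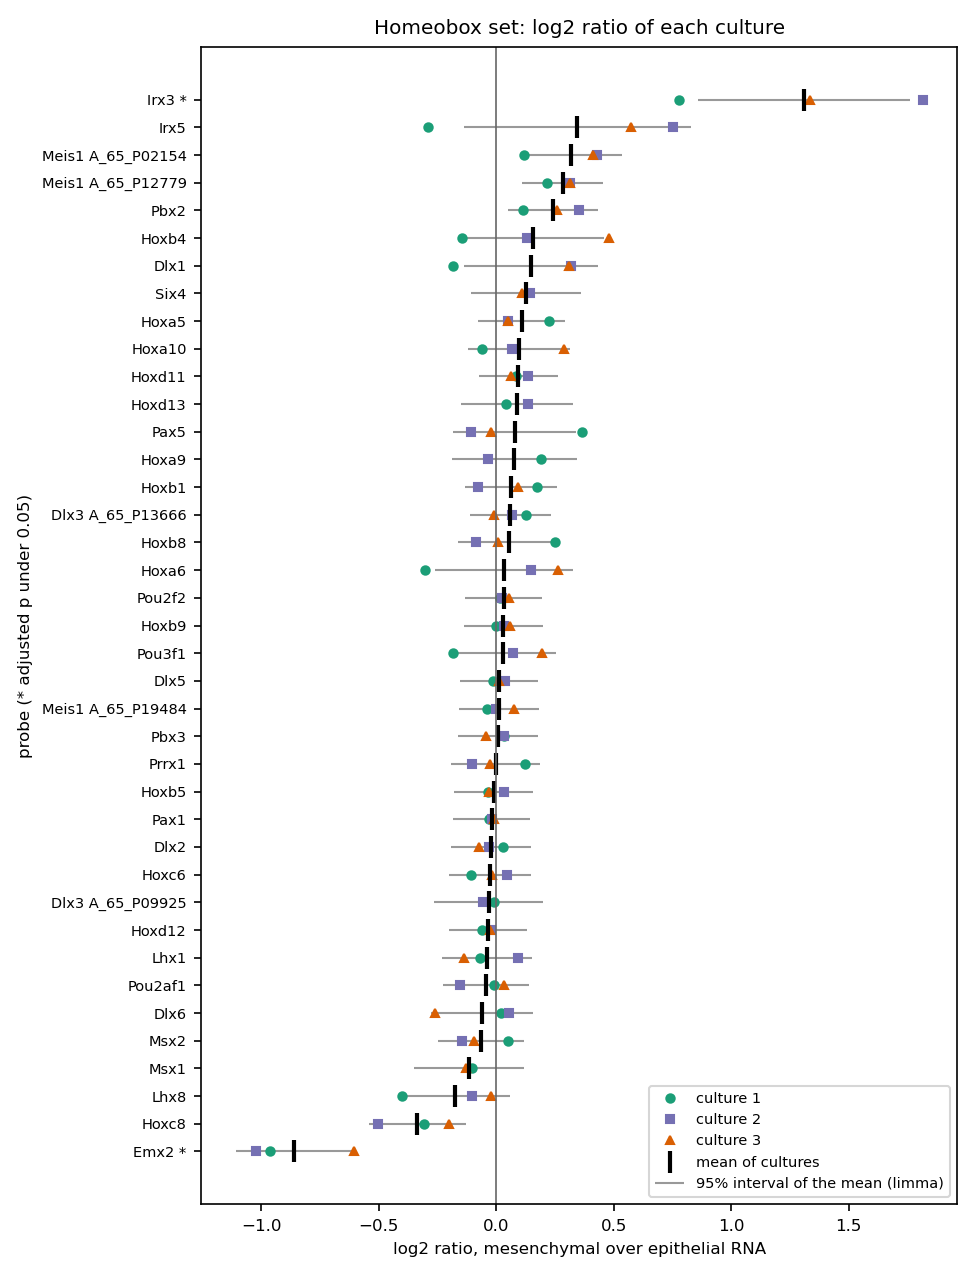
Log2 ratio of mesenchymal over epithelial signal for the tested homeobox probes reported here; points are the 3 cultures and bars are the 95% interval of the mean. Irx3 lies at 0.78, 1.81 and 1.34 and Emx2 at -0.96, -1.02 and -0.60, while most other probes lie close to 0.

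The promoters of the called genes are shown because these are the members with a called difference. They are the 250 bases before the start of each gene on its own strand, 5′ to 3′, from RefSeq, build GRCm38.p6. Capitals mark matches to GGGCGG, the GC box. Emx2 lies at chr19:59458440-59458689 on the plus strand and Irx3 at chr8:91801655-91801904 on the minus strand.
Emx2: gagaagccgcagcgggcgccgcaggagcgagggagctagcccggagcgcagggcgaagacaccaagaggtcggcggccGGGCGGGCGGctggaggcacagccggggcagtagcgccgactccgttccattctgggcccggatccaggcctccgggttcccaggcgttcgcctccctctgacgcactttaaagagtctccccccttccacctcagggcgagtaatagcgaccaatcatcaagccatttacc
Irx3: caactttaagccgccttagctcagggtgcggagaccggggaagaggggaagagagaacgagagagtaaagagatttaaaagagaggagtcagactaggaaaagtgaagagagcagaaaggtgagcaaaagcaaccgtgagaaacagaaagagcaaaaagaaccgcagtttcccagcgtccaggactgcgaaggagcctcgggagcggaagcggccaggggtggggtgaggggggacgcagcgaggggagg
The Emx2 window was 67.2% G and C, with a CpG ratio (observed over expected) of 0.85, and held 2 overlapping GC boxes. The Irx3 window was 56% G and C with a CpG ratio of 0.79 and held none of the motifs searched on both strands: the GC box, CAGGTG (the E-box of Snail and Zeb factors), TAATTA (a homeodomain core), TATAAA and ACGTG (the hypoxia element). Promoters were found for 27 of the 39 genes, 31 windows in all. The GC box was in 16 of these and in 32.7% of all 32851 promoters, CAGGTG in 2 and 17.2%, TAATTA in 4 and 4.84%, TATAAA in 3 and 12.4%, and ACGTG in 9 and 16.6%. Median G and C content was 59.2% in the members' windows and 52.4% in all, and the median CpG ratio was 0.70 against 0.37.

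Emx2, a homeodomain factor of the urogenital ridge and the forebrain, was the lower of the called pair. Its normalised log2 signal was 12.12, 12.25 and 11.47 in the epithelial RNAs of cultures 1, 2 and 3, and 11.16, 11.23 and 10.86 in the mesenchymal RNAs. The groups did not overlap, and each culture fell. The ratios were -0.96, -1.02 and -0.60, with a mean of -0.86 ± 0.23 (SD, n = 3), a 1.82-fold lower signal with a 95% interval of -1.11 to -0.62 and an adjusted p of 0.0046. Among all tested probes, 298 had a lower ratio. Its signal was a median of 24.8 times the upper limit of the negative controls (their 95th percentile) in epithelial RNA and 13.8 times in mesenchymal RNA. Emx2 kept an adjusted p of at most 0.015 in each of 15 refits that kept both dye orientations, with ratios of -0.99 to -0.78, but at 1.82-fold it does not pass a requirement of 2-fold. With mesenchymal RNA in Cy5 the arrays gave -1.37, -1.72 and -1.43, and in Cy3 they gave -0.56, -0.32 and 0.22. On the 3 Cy3 arrays alone the mean was -0.22 with an adjusted p of 0.33, so that orientation by itself made no call.

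Irx3 belongs to the Iroquois family, which patterns the heart, limb and gonad. Its log2 signal was 8.41, 8.03 and 8.06 in epithelial RNA and 9.19, 9.84 and 9.39 in mesenchymal RNA. Every mesenchymal value lay above every epithelial one. The ratios were 0.78, 1.81 and 1.34, with a mean of 1.31 ± 0.52 (SD, n = 3), a 2.48-fold higher signal with a 95% interval of 0.86 to 1.76 and an adjusted p of 0.0087. Only 69 of the tested probes had a higher ratio. The epithelial signal was dim, 1.07 to 2.13 times the upper limit of the negative controls on the 6 arrays, against 2.39 to 12.9 times in mesenchymal RNA. The dyes differed here as well: mesenchymal RNA in Cy3 gave 1.69, 3.21 and 2.28, and in Cy5 it gave -0.13, 0.42 and 0.39. On the Cy5 arrays alone the mean was 0.23 with an adjusted p of 0.21, and without culture 3 the mean was 1.30 with an adjusted p of 0.056, so both ended the call. It was called in the other 14 of 15 refits that kept both dye orientations, with ratios of 1.06 to 1.58.

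Irx5, the neighbour of Irx3 with 0 coding genes between them in RefSeq, was at 11.29, 10.59 and 10.53 in epithelial RNA and 10.99, 11.34 and 11.10 in mesenchymal RNA. The groups overlapped. Its ratios were -0.29, 0.75 and 0.57, a mean of 0.34 ± 0.56 with a 95% interval of -0.14 to 0.83 (adjusted p = 0.39). Culture 1 went the other way from cultures 2 and 3, in which Irx3 was also furthest from 0. The interval for Irx5 is wide enough to hold a change above 1.5-fold, so these 3 cultures do not show that Irx5 stayed the same.

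**Figure D2:**
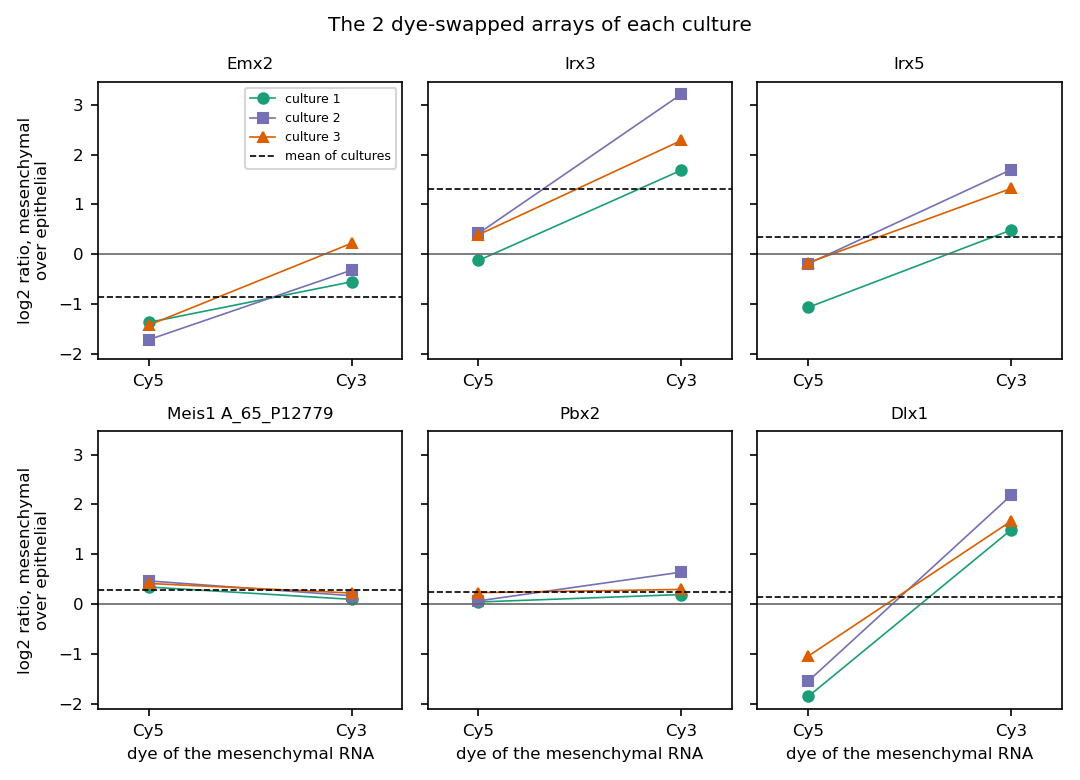
Log2 ratio of mesenchymal over epithelial signal on each of the 6 arrays for selected homeobox probes, set apart by the dye of the mesenchymal RNA; points joined by a line are the 2 arrays of a culture and the dashed line is the mean. For Emx2 and Irx3 the 3 arrays of one orientation carry most of the difference, and Meis1 probe A_65_P12779 and Pbx2 lie above 0 on all 6 arrays.

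Meis1 and the Pbx genes encode the partners of Hox proteins. Meis1 probe A_65_P12779 had epithelial signals of 10.76, 10.75 and 11.13 and mesenchymal signals of 10.97, 11.06 and 11.45. Within each culture the mesenchymal value was higher, although the groups overlapped. Its ratios were 0.22, 0.31 and 0.32, a mean of 0.28 ± 0.06 (adjusted p = 0.057), and it was called with the culture as a replicate block (adjusted p = 0.018). A second Meis1 probe, A_65_P02154, had ratios of 0.12, 0.43 and 0.41, a mean of 0.32 ± 0.18 (adjusted p = 0.082, or 0.093 with the block and 0.044 with median centring), while the third, A_65_P19484, was at 0.01 ± 0.06 (adjusted p = 0.95). Over refits with both dye orientations the adjusted p ran from 0.000709 to 0.362 for A_65_P12779 and from 2.76e-06 to 0.426 for A_65_P02154. Both low ends came from the fit without culture 1, which gave all probes a common spread. With culture 1 kept, the lowest were 0.0089 for A_65_P12779 (no replicate block) and 0.044 for A_65_P02154 (median centring). Probe A_65_P02154 was at -0.09, -0.007 and -0.19 with mesenchymal RNA in Cy5 and at 0.32, 0.87 and 1.01 in Cy3. Its rise thus lay in 1 dye orientation. The probes of this gene thus disagreed, and where each lies on the transcripts was not analysed here. Pbx2 had ratios of 0.11, 0.35 and 0.26, a mean of 0.24 ± 0.12 (adjusted p = 0.12). Pbx2 and Meis1 probe A_65_P12779 were the only tested homeobox probes with ratios of one sign on all 6 arrays. Pbx3 was at 0.007 ± 0.05 (adjusted p = 0.97).

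The clustered Hox genes gave 14 tested probes, of which none was called in limma, where 11.3% of all probes were, and 1 had an unadjusted p below 0.05, where 23.5% of all probes did. Hoxb8 was not above the negative controls in either RNA. The other 13 had a median ratio of 0.06 and 95% intervals that stayed within 1.5-fold. These intervals rest partly on variance shared across probes. Hoxc8 was the probe with the small unadjusted p. Its signals were 12.47, 12.87 and 13.17 in epithelial and 12.16, 12.37 and 12.97 in mesenchymal RNA, overlapping groups but lower in each culture, with ratios of -0.31, -0.50 and -0.20 (mean -0.34 ± 0.15, adjusted p = 0.058). It was called when the 6 arrays were fitted with the culture as a replicate block (adjusted p = 0.022) and with median centring (0.0497), and over the 15 refits with both dye orientations its adjusted p ran from 0.000123 to 0.338. The low end came from the fit without culture 1, which gave all probes a common spread, and the lowest with culture 1 kept was 0.013 (no replicate block). With mesenchymal RNA in Cy5 the Hoxc8 arrays gave -0.02, -0.07 and 0.12, and in Cy3 they gave -0.60, -0.93 and -0.52. In limma the mean was 0.01 on the Cy5 arrays alone (adjusted p = 0.91) and -0.69 on the Cy3 arrays alone (adjusted p = 0.013). The drop of Hoxc8 thus lay in 1 dye orientation. In the Hoxa cluster, whose posterior genes mark the Müllerian tract, Hoxa10 was at -0.06, 0.07 and 0.29 (mean 0.10 ± 0.18) and Hoxa9 at 0.19 and -0.04 in the 2 cultures measured (mean 0.08 ± 0.16). Hoxa5 was at 0.11 ± 0.10 and Hoxa6 at 0.03 ± 0.30. The Hoxb genes ran from Hoxb5 at -0.01 ± 0.04 to Hoxb4 at 0.15 ± 0.31, with Hoxb1 at 0.06 ± 0.13, Hoxb8 at 0.06 ± 0.17 and Hoxb9 at 0.03 ± 0.03. Hoxc6 was at -0.03 ± 0.08, and the Hoxd genes, which pattern limbs and the posterior body, at 0.09 ± 0.04 for Hoxd11, -0.04 ± 0.02 for Hoxd12 and 0.09 ± 0.07 for Hoxd13 (2 cultures). Hoxa7, Hoxa11, Hoxa13, Pax2, Pax8, Lhx2, Lhx9 and Prrx2 had no probe under these names and were not analysed here.

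The remaining families held no call. Six4, which acts with Eya coactivators, was at 0.13 ± 0.03 in 2 cultures. Msx1 and Msx2, targets of BMP signalling, were at -0.12 ± 0.02 (2 cultures) and -0.07 ± 0.10. Prrx1, a factor of embryonic mesenchyme, had signals of 9.29, 10.09 and 9.97 in epithelial and 9.42, 9.98 and 9.94 in mesenchymal RNA, so the groups overlapped almost wholly. Its ratio was -0.002 ± 0.11 with a 95% interval of -0.19 to 0.19.

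The Dlx genes, used in craniofacial and limb development, gave 6 probes between -0.06 for Dlx6 and 0.15 for Dlx1. Dlx1 had ratios of -0.18, 0.32 and 0.31 and a dye effect of -1.63, Dlx2 and Dlx5 were at -0.02 ± 0.05 and 0.01 ± 0.03, and the 2 Dlx3 probes were at -0.03 ± 0.03 and 0.06 ± 0.07. Lhx8, a factor of oocytes and forebrain, was at -0.18 ± 0.20 with culture 1 at -0.40, and Lhx1 at -0.04 ± 0.12. Pax5, a B-cell factor, was at 0.08 ± 0.25 and Pax1 at -0.02 ± 0.01. Of the POU genes and their cofactor, Pou2f2 was at 0.03 ± 0.02, Pou3f1 at 0.03 ± 0.19 and Pou2af1 at -0.04 ± 0.10. Dlx2, Dlx6 and Lhx1 were not above the negative controls, so their ratios set no bound on a change.

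**Figure D3:**
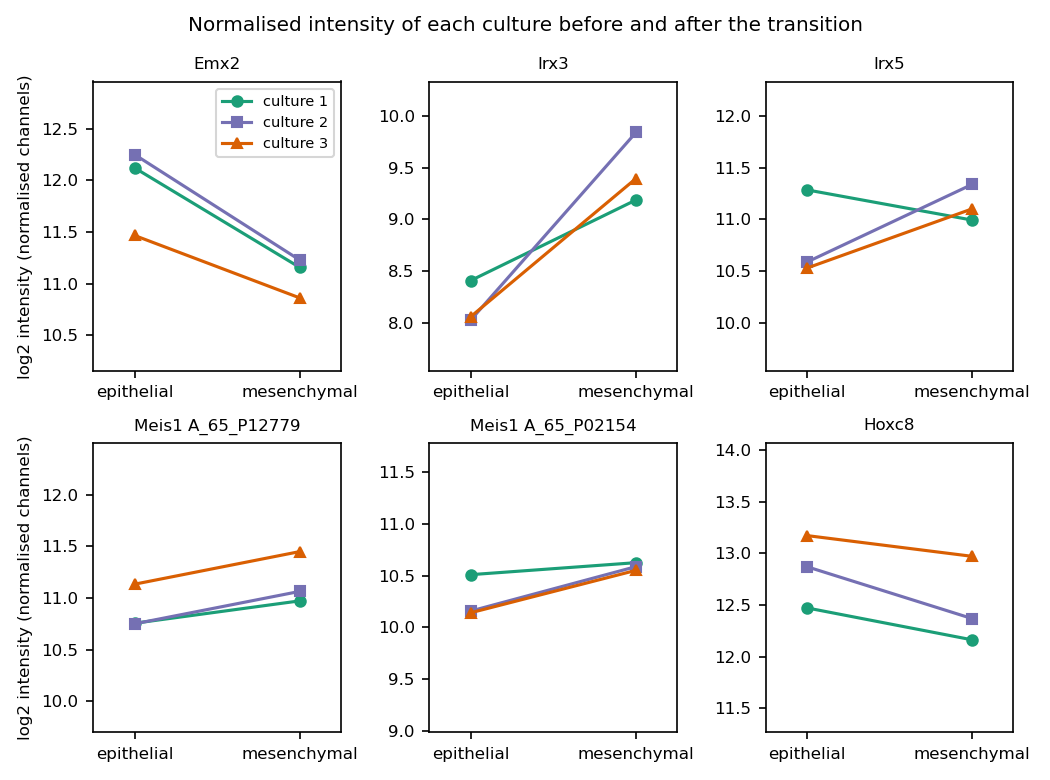
Normalised log2 signal of selected homeobox probes in the epithelial and mesenchymal RNA of each culture, with lines joining the 2 RNAs of a culture. The lines fall in all 3 cultures for Emx2 and rise in all 3 for Irx3, and for Irx5 the line of culture 1 runs against the other two.

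Signal above background was common but says little by itself. In both RNAs, 37 of the 42 probes (34 genes) exceeded the 95th percentile of the 162 negative control spots on at least 4 of 6 arrays, and 35 did so on all 6. Over the whole array 94.6% of probes did. The probes of Dlx2, Dlx6, Hoxb8, Lhx1 and Pax6 exceeded it in neither RNA, and Pax6 was the probe not tested. For these 5 genes a difference was not detectable at this signal. No homeobox probe exceeded the limit in only one of the RNAs.

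**Figure D4:**
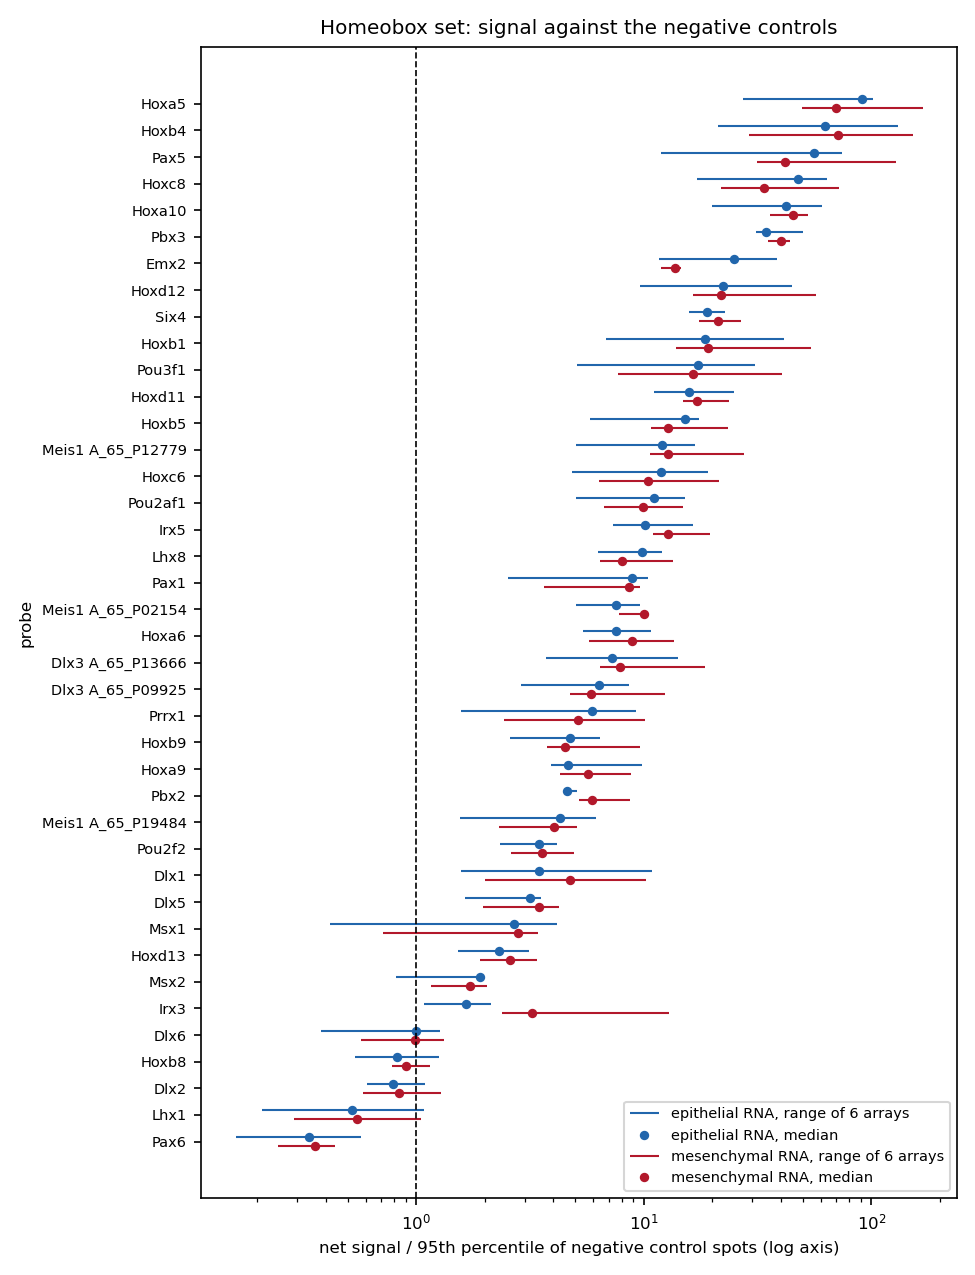
Median signal of the homeobox probes reported here over the 6 arrays, divided by the 95th percentile of the negative control spots, for epithelial and mesenchymal RNA on a log axis; lines are the range over arrays. The medians of Dlx6, Hoxb8, Dlx2, Lhx1 and Pax6 lie about or below the limit of 1, and that of Irx3 in epithelial RNA lies at 1.64.

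The cultures did not move alike. Of the 36 homeobox probes measured in 3 cultures, 13 (36.1%) had ratios of one sign throughout, against 44.6% of all such probes. Culture 1 alone had the opposite sign for 12, culture 2 for 5 and culture 3 for 6. Over these 36 probes, cultures 2 and 3 correlated at 0.91 and culture 1 correlated with them at 0.63 and 0.52, values given as a description since probes on the same arrays are not independent. Without culture 1, 10 of 37 homeobox probes were called where 32.3% of all probes were. The 8 higher were Irx3 (1.58), Irx5 (0.66), Meis1 A_65_P02154 (0.42), Meis1 A_65_P12779 (0.31), Dlx1 (0.31), Pbx2 (0.31), Hoxb4 (0.30) and Hoxa6 (0.20). The 2 lower were Emx2 (-0.81) and Hoxc8 (-0.35). With 2 cultures the fit gave all probes one common spread, so these adjusted p values rest on the array's average noise and not on each probe's own. For 31 of the 41 tested probes the dye effect was larger than the ratio.

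Related genes outside the name rule were read from lists chosen by function. Among 22 other homeobox genes, 2 (9.09%) were lower and none was higher, where 11.3% of all probes were called. The shares called in the lists of partners (11.1%) and of the retinoic acid pathway (12.5%) were also near that of all probes. Hopx, a small homeodomain protein that does not bind DNA itself, was at -1.73 ± 0.21 (adjusted p = 0.00042), and Cux1, a cut-family repressor, was at -0.60 ± 0.13 (adjusted p = 0.0070). Both were below 0 on all 6 arrays, and Cux1 lost its call without culture 3. Of 9 partners of homeodomain proteins, 1 was higher: Eya3, a coactivator that acts with Six4 and its relatives, at 0.42 ± 0.08 (adjusted p = 0.018), a call lost without culture 2, without culture 3, with trend and robust variance and on the arrays with epithelial RNA in Cy5 alone. Of 8 genes of the retinoic acid pathway, a regulator of Hox clusters, 1 was lower: Aldh1a1, which makes retinoic acid, at -1.22 ± 0.05 (adjusted p = 0.00045). Its epithelial signal was saturated on all 6 arrays, which makes the drop look smaller. The median ratios of the 3 lists were -0.03, -0.004 and -0.03 in that order.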

How the data were processed

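RNA of 3 cultures was measured on 6 Agilent 2-colour arrays, from 4 µg of total RNA per labelling of cells at 80% confluence. Per the file headers, Feature Extraction A.7.1.1 produced the spot intensities, which are linear mean signals and local backgrounds. The log10 ratios of the authors' deposited value table served as an alternative, and other columns of the deposited files are flags. Per the submitters' processing notes limma was used, with no version given. On the culture 3 array with mesenchymal RNA in Cy3, the file headers give another background method and annotation, and 1639 probes were outlier-flagged against 61 to 467 elsewhere.

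Here, intensities were corrected with normexp (offset 50) and loess-normalised within arrays in limma 3.58.1 under R 4.3.3, control spots at weight 0. Spots flagged as outliers were dropped, and a culture's ratio needed both arrays. Probes needed the well-above-background flag for the same RNA on 4 of 6 arrays and 2 cultures. That flag was also set on 18.5% to 81.5% of the negative control spots. Ratios were tested against 0 with lmFit and eBayes. 5 homeobox probes rest on 2 cultures. The code was tested on simulated data. All 42 gene IDs matched current RefSeq symbols.

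The cultures are separate, per the labels, so p-values rest on spread between cultures. That spread is not each probe's own alone, since eBayes combined it with variance shared across probes. Some genes are counted but not reported here by name. Named were the called members, the 10 brightest uncalled members, a preset list of tract, gonad and mesenchyme factors, and, from each list, called members by size of change. The members and lists were chosen with earlier results of these data known.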

Additional observations from a re-analysis of the deposited data

How the results depend on the processing

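The count of 2 called homeobox probes became 4 with median centring, 4 with the 6 arrays fitted with a replicate block, 5 with no replicate block, 11 on the arrays with epithelial RNA in Cy3 and 10 on those with epithelial RNA in Cy5. Leaving out a culture gave 1 to 10 (10 without culture 1, 1 without culture 3), and asking for a 2-fold change gave 1, Irx3, so that Emx2 lost its call. The replicate block added Hoxc8 and Meis1 A_65_P12779 to the calls. The count of 2272 over all probes became 2530 with median centring, 2804 with the replicate block and 3461 with no replicate block. With trend and robust variance it fell to 1522. It was 8211 and 6898 on arrays of one orientation and 809 to 5875 without a culture (5875 without culture 1, 1163 without culture 2, 809 without culture 3). At an adjusted p below 0.01 it was 963, and at 2-fold or more 353. The replicate block fit used the culture that the labels number, since both arrays of a culture share its RNAs, with a consensus correlation of 0.25. The share of higher calls on arrays of one orientation was 3515 of 8211 and 4189 of 6898.

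With epithelial RNA in Cy3 only, 6 of the probes reported here were called with the sign turned: Hoxa10 at -0.50, Dlx3 A_65_P09925 at 0.24, Pou2af1 at 0.26, Dlx1 at -1.49, Hoxd11 at -0.35 and Pbx3 at -0.51. Such values hold the dye effect in full, by the construction of that alternative. Over the refits (not the stricter thresholds) and the 39 tested homeobox probes reported here, 611 values kept their call, 26 gained one, 3 lost one and 6 were these reversals. A probe without a call that stayed uncalled counts as kept whatever its sign. The 3 cultures and 6 arrays limit the precision, and 5 of the 42 homeobox probes were not above the negative controls in either RNA.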

Other observations

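Close relatives of the homeobox members carried other names on the array. Meis3, a Hox partner of the Meis family listed under the older name Mrg2, had ratios of 1.02, 0.93 and 0.35 (mean 0.77 ± 0.36, SD, n = 3, adjusted p = 0.020 in limma) and lay above 0 on all 6 arrays. These probes were picked out after values of the data had been seen. Meis2, listed as Mrg1, had probes at -0.09 ± 0.11 (adjusted p = 0.59) and 0.23 ± 0.09 (adjusted p = 0.11). Of the 42 homeobox probes, 14 had the same name under the annotation of the culture 3 array with mesenchymal RNA in Cy3. The others had their clone or accession identifier there in place of a gene name, and none carried the name of another gene.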
